A study of Mus musculus with 3 samples.

Results

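In mouse hearts 11 days after myocardial infarction, 525 of 4673 cells kept from a single-cell library of sorted macrophages carried transcripts of at least 4 of the 5 genes Cxcr3, Cd72, F11r, Tmem119 and Sh2d1b1. This is 11.2% of the library (exact Clopper-Pearson 95% interval 10.3 to 12.2%), out of 8207 cells kept in the whole series. These Cxcr3 Cd72 Tmem119 macrophages also had fewer than 3 UMIs (unique molecular identifiers, 1 per captured transcript) of Gpnmb, fewer than 3 of Saa3 and none of Arg1. Every cell considered had 500 or more detected genes and no more than 10% mitochondrial UMIs. They are described against the 3895 other cells of the same library in which C1qa, C1qb and C1qc, the chains of complement C1q that mark tissue macrophages, made up at least 40 of every 10000 UMIs. The 5 genes and the 3 limits chose the cells, so the levels of those 8 genes are given as a description only.

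Macrophages in an infarcted heart are known to be a mixture. Resident cells of embryonic origin, known by Timd4, Lyve1 and Folr2, are joined by monocytes that enter through Ccr2 and mature in the tissue into inflammatory, lipid-handling or antigen-presenting cells. The 5 markers come from different branches of immune biology: Cxcr3 is the receptor for the interferon-induced chemokines Cxcl9 and Cxcl10, Cd72 is an inhibitory C-type lectin best studied in B cells, F11r is the junctional adhesion molecule JAM-A, Tmem119 is a membrane protein widely used to mark microglia, the macrophages of the brain, and Sh2d1b1 encodes the adaptor EAT-2, which carries signals of the SLAM family receptors in natural killer cells.

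The study made 3 droplet libraries (10x 3′ chemistry) of cells sorted from hearts of C57BL/6 mice aged 8 to 12 weeks. The day 11 library and a steady-state library hold live cells sorted by CD45, CD64 and CD11b from mice of genotype Cx3cr1CreER-YFP/+:R26Td/+, so both carry 1 Cx3cr1 allele replaced by an inducible Cre and a yellow fluorescent protein under the Cx3cr1 promoter, and a tdTomato reporter that Cre switches on. The third library came from wild-type steady-state hearts and added cells from a gate for dendritic cells (CD64- CD11c+, MHC class II from intermediate to high). Flavopiridol, an inhibitor of transcription, was present during digestion, and the labels do not give the number of animals behind a library. Infarction is represented by 1 library, and cells of 1 library are not replicates. No p-value is given, therefore, and each 95% interval speaks of counting error alone.

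The 3 libraries, day 11 first, then steady state, then the library with dendritic cells, held 4673, 1767 and 1767 kept cells with median depths of 8246, 10834 and 7193 UMIs. The 525 members had a median of 8734 UMIs and 2446 genes, against 8147 UMIs and 2349 genes in the 3895 other C1q cells. Pairs of libraries shared 7 to 11 cell barcodes, and 1 member shared its barcode with each of the other libraries.

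Among the genes that chose the cells, Cd72 was the most abundant in members. It reached 978 counts per 1000000 (CPM, the UMIs of a gene relative to all UMIs of the group of cells) in members, against 487 CPM in the other C1q cells, and no member lacked it. Tmem119 stood at 213 CPM in members and 54.2 CPM in the other cells, and F11r at 194.5 CPM in members and 61.8 CPM in the other cells. Sh2d1b1 had 150 CPM in members against 43.1 CPM, and Cxcr3, the rarest of the 5, had 71.9 CPM in members against 10.4 CPM. Cxcr3 was also the marker most often missing: 284 of 525 members (54.1%) had none of its transcripts, while F11r was missing in 39, Tmem119 in 55 and Sh2d1b1 in 55. Most members are therefore cells with Cd72, F11r, Tmem119 and Sh2d1b1, and only a minority also had Cxcr3. Their markers rest on few molecules, with a median of 8 UMIs of Cd72 in cells that had it, 2 each of F11r and Tmem119, and 1 each of Sh2d1b1 and Cxcr3.

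The rule divides a continuous range. Within the limits on Gpnmb, Saa3 and Arg1, 319 cells had none of the 5 markers, 915 had 1, 943 had 2, 790 had 3, 433 had 4 and 92 had all 5. The 433 cells just inside the rule averaged 2.02 UMIs of Tmem119 and 9.38 of Cd72, and the 790 cells just outside it averaged 1.04 UMIs of Tmem119 and 7.18 of Cd72. A further 119 cells had at least 4 markers and failed a limit, 67 of them on Gpnmb, 57 on Arg1 and 7 on Saa3. Over all 4335 C1q cells deep enough to be thinned to 3000 UMIs each, each marker was more frequent in cells that had another of the 5 than in cells that did not. Tmem119 transcripts were found in 23.2% of cells with Cd72 and 11.2% of cells without it, a ratio of 2.07 that was the highest of the 10 pairs, and the lowest ratio was 1.25, for Cxcr3 and Cd72.

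The label of the population was checked against macrophage genes. C1qa reached 6900 CPM in members and 6863 CPM in the other C1q cells, and C1qb 7566 CPM in members and 7663 CPM in the other cells, although 14 members lay under the C1q level that defined the comparison cells. The receptor genes Adgre1 (F4/80), Fcgr1 (CD64) and Csf1r differed little, at 1.06, 0.957 and 1.03 times their level in the other cells, and 2 of 13 core macrophage genes tested were at least 1.5-fold lower, Mertk and Lyz2. The members are thus macrophages by these genes. Since Cxcr3, Cd72 and Sh2d1b1 are also lymphocyte genes, lists for other cells were summed. The 9 T cell genes came to 12.2 CPM in members and 12.8 CPM in the other C1q cells. Within this list Cd5 had 5.55 CPM in members and 1.29 CPM in the other cells, a ratio of 4.31 (2.64 to 6.94). Cd28 had a ratio of 0.224, so these sums hold genes on both sides. The 13 genes of natural killer and innate lymphoid cells came to 21.1 CPM in members and 19.3 CPM in the other cells. Il7r alone made up 13.5 CPM of this sum in members and 13.8 CPM in the other cells. Of the 13, 7 were at 0 in members and 2 in the other cells, which held more UMIs in all. Both sums were far lower than in the 253 day 11 cells with low C1q. Those had 70.9 CPM for the T cell list and 129.7 CPM for the natural killer and innate lymphoid list. Markers of B cells summed to 60.6 CPM in members and 87.4 CPM in the other C1q cells. Jchain alone made up 1.85 CPM of this sum in members and 34.96 CPM in the other cells. Cd79b, the largest part in both groups, had a ratio of 1.19 (1.03 to 1.37), with 42.9 CPM in members. The lower B cell sum in members thus rests on Jchain and is not read as a weaker B cell signal. Type 2 dendritic cell markers summed to 620 CPM in members and 631 CPM in the other C1q cells, beside 1390 CPM in low-C1q cells. Sirpa, which macrophages also express, made up 279 CPM of that sum in members and 293 CPM in the other C1q cells. Mgl2 made up 192 CPM in members and 224 CPM in the other cells. Within the list Cd209a, Flt3 and Dpp4 had ratios of 2.58, 2.79 and 2.17, with 58.6, 9.43 and 9.62 CPM in members. Zbtb46 and Kmo had ratios of 1.29 and 1.04, and Mgl2, Clec10a, Sirpa and Ifi205 ratios of 0.854, 0.823, 0.952 and 0.868. The near-equal sums thus hold genes on both sides. Computed doublet scores picked 19 members (3.62%) and 156 other C1q cells (4.01%).

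The 5 genes lie on 4 chromosomes of the mouse genome (GRCm38), each as a protein-coding gene. Sh2d1b1 (chr1:170277320-170286769, plus strand) and F11r (chr1:171437535-171464603, plus strand) share chromosome 1, Cd72 is at chr4:43446462-43454628 on the minus strand, Tmem119 at chr5:113793729-113800516 on the minus strand, and Cxcr3 at chrX:101731535-101734269 on the minus strand. RefSeq promoters of that build (GRCm38.p6) matched 4 of the 5 genes. They were searched because the rule takes these genes together, so their joint detection in members was set by the choice of cells. The search used the 6-base core GAGGAA, which is bound by PU.1, the product of Spi1 and the main transcription factor of myeloid cells. This core was found on either strand in all 4 windows of 250 bases before the RefSeq start, against 23.3% of 32851 mouse promoters of the same length. Spi1 itself was 1.07 times as high in members as in the other cells. The stretches of 3 of these promoters that precede the gene model are shown 5′ to 3′ on the gene's strand with GAGGAA, or its complement TTCCTC, in capitals.
Cd72 (chr4:43454629-43454876, minus strand): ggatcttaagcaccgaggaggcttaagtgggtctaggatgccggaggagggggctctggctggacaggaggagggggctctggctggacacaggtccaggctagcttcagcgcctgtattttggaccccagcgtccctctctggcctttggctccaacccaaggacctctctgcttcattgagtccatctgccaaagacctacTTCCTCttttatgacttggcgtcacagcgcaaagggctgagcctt
F11r (chr1:171437311-171437534, plus strand): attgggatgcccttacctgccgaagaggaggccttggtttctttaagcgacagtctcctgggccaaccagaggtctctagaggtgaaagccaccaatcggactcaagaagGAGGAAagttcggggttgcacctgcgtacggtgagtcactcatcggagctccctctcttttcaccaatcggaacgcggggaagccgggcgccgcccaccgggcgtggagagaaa
Sh2d1b1 (chr1:170277068-170277317, plus strand): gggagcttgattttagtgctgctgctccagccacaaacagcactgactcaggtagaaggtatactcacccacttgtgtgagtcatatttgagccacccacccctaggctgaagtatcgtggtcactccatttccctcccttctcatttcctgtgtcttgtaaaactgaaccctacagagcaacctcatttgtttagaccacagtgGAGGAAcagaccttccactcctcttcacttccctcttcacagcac
The matches lay 47 bases before the RefSeq start of Cd72, 140 before that of F11r and 45 before that of Sh2d1b1. In Cxcr3, whose window is not printed, the match lay 14 bases before the RefSeq start. There 122 of the 250 window bases lie inside the gene model given above, and the match is among them. The AP-1 motif TGACTCA, searched on both strands, was found once in F11r and in 2 places in Sh2d1b1, against 4.46% of promoters with at least 1. Motifs of interferon regulatory factors, GGAA or GAAA followed after 2 bases of any kind by GAAA, were found in none of the 4 windows on either strand, and 2.30% and 2.98% of all promoters hold them. A match is a description of letters and not of a bound site.

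**Figure D1:**
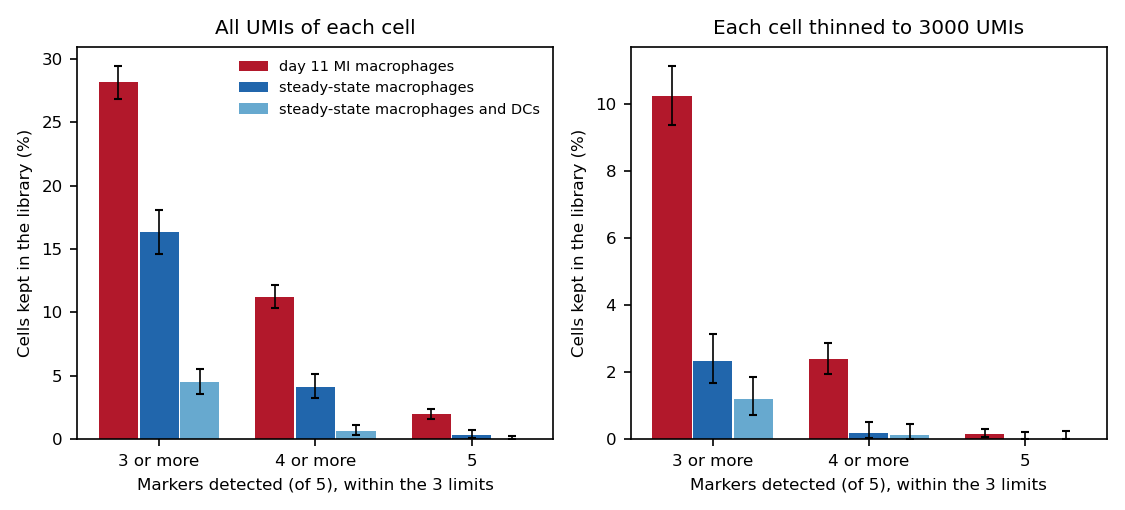
Share of kept cells (percent, vertical axes) with at least 3, at least 4 or all 5 markers inside the 3 limits, in the day 11, steady-state and dendritic-cell libraries, with all UMIs (left) and after thinning each cell to 3000 UMIs (right). Error bars are exact 95% binomial intervals, and the day 11 bar is the highest for at least 4 markers both with all UMIs (11.2%) and after thinning (2.38%).

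Cells meeting the rule were not limited to the infarcted heart, though they were fewer at steady state. The rule picked 73 of 1767 cells (4.13%, interval 3.25 to 5.17%) in the steady-state library and 11 of 1767 (0.623%) in the library with dendritic cells. These shares depend on depth, and the 73 steady-state cells had a median of 15194 UMIs. After each cell was thinned to 3000 UMIs, 109 of 4589 day 11 cells (2.38%, interval 1.95 to 2.86%), 3 of 1767 steady-state cells (0.170%, interval 0.0350 to 0.495%) and 2 of 1595 cells of the dendritic-cell library (0.125%) met it. Each marker was more often detected at day 11 at this equal depth. Cxcr3 was found in 5.05% of day 11 C1q cells and 1.22% of steady-state ones, Tmem119 in 18.8% at day 11 and 7.08% at steady state, and Cd72 in 63.6% at day 11 and 41.4% at steady state. F11r and Sh2d1b1 were also more frequent at day 11, at 20.0% and 14.8% of C1q cells, against 8.01% and 5.92% at steady state. With 1 library for each state, infarction and library cannot be told apart in these shares.

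Of 5100 genes tested outside the rule (at least 20 CPM in members or in the other C1q cells), 124 (2.43%) were at least 1.5-fold higher in members and 145 (2.84%) at least 1.5-fold lower. At 2-fold the counts were 29 higher (0.569%) and 58 lower (1.14%). Over most expressed genes the members thus stood within 1.5-fold of the other macrophages of the infarcted heart. Because the limits on Gpnmb, Saa3 and Arg1 take lipid-handling and inflammatory cells out of the members alone, a second comparison used only the 2790 other C1q cells inside the same limits. There 79 of 5115 genes (1.54%) were higher and 129 (2.52%) lower.

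Several of the genes with the highest ratios encode proteins of leukocyte signalling and antigen handling. Zmynd15, a zinc finger transcriptional repressor known from male germ cells, reached 91.9 CPM in members against 34.5 CPM in the other C1q cells, a ratio of 2.66 (2.40 to 2.95), and its transcripts were found in 21.3% of members and 8.73% of the other cells at 3000 UMIs per cell, beside 4.17% of low-C1q cells. Spn, which encodes the sialoglycoprotein CD43, stood at 60.8 CPM in members and 26.2 CPM in the other cells, a ratio of 2.32 (2.04 to 2.63). Scimp, a transmembrane adaptor found in MHC class II microdomains, had 143 CPM in members and 69.8 CPM in the other cells, a ratio of 2.05 (1.89 to 2.23). These 3 differences remained above 1.5-fold against cells inside the same limits, at 2.56 for Zmynd15, 1.96 for Spn and 1.69 for Scimp. Napsa, an aspartic protease of antigen-presenting cells, had 127 CPM in members and 62.1 CPM in the other cells, a ratio of 2.05 (1.88 to 2.23). Siglece, an inhibitory sialic-acid receptor, had 116 CPM in members and 60.7 CPM in the other cells, a ratio of 1.92 (1.75 to 2.09). Pdlim7, a cytoskeletal scaffold, had 63.2 CPM in members and 31.8 CPM in the other cells. Low-C1q cells had more Napsa than members, with 455 CPM. They had less than members of Spn, Scimp, Siglece and Pdlim7, with 30.5, 67.8, 50.7 and 34.4 CPM.

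Other names among the 15 highest rest on few cells or on dividing cells. Sparc, a matrix glycoprotein of stromal cells, had 51.6 CPM in members and 22.2 CPM in the other cells, a ratio of 2.33, but 5 cells held 200 of its 279 UMIs in members. The ratio was 0.659 without these 5, and 0.776 when the top 5 of the other cells were left out too. A single member with all 5 markers, 17178 UMIs and 4397 genes held 514 of the 761 UMIs of Col1a1, Col1a2, Col3a1, Dcn, Lum and Sparc among members. The 9 fibroblast markers as a list summed to 408 CPM in members and 277 CPM in the other C1q cells, beside 1148 CPM in low-C1q cells, with Gsn alone at 313 CPM in members. Cd209a, a lectin of monocyte-derived dendritic cells, had 58.6 CPM in members and 22.7 CPM in the other cells, with all 317 of its UMIs in 42 members. Without the top 5 members its ratio was 1.31, and 1.61 when the top 5 of the other cells were left out too. Its share of cells at 3000 UMIs was 3.62% of members and 2.93% of the other C1q cells, beside 26.7% of low-C1q cells. Flt3, a growth factor receptor of dendritic cells named after its values were seen, was under the minimum level with 9.43 CPM in members and 3.38 CPM in the other cells, a ratio of 2.79 (1.97 to 3.89). Cks1b, Birc5, Top2a, Ube2c, H2afx, Hmgb2 and Stmn1 are genes of dividing cells and are given with that group.

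The 15 genes with the lowest ratios included a block of resident macrophage genes. Retnla, a secreted product of alternatively activated macrophages, had 12.8 CPM in members and 67.7 CPM in the other cells, a ratio of 0.188, although few cells carried it in either group (2.29% of members and 3.22% of the other cells at 3000 UMIs). Folr2, the folate receptor of resident macrophages, had 96.7 CPM in members and 310.6 CPM in the other cells, a ratio of 0.311. F13a1, the coagulation factor XIII subunit made by macrophages, had 112 CPM in members and 376 CPM in the other cells, a ratio of 0.297. Lyve1, a hyaluronan receptor, had 17.8 CPM in members and 63.4 CPM in the other cells, and C4b, a complement component, 17.9 CPM in members and 71.5 CPM in the other cells. Cbr2, Ccl24 and Ccl8 were lower with ratios of 0.319, 0.312 and 0.388. All of these stayed at least 1.5-fold lower against cells inside the same limits, where Folr2 had a ratio of 0.266 and F13a1 one of 0.254.

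Another set of low genes moved towards 1 when both groups had the same limits. Spp1, which encodes the matrix protein osteopontin, had 321 CPM in members and 951 CPM in the other cells, a ratio of 0.337, but a ratio of 0.788 against cells inside the same limits. Fn1, fibronectin, moved likewise with ratios of 0.312 and 0.773, and Clec4d with 0.344 and 0.742. Fabp5, a fatty acid binding protein, had 86.0 CPM in members and 387 CPM in the other cells, a ratio of 0.222, and 0.612 inside the limits. Mgst1, Fxyd2 and Ltc4s completed the 15, with ratios of 0.347, 0.366 and 0.379. Over the 30 named genes, 11 of the 15 higher and 12 of the 15 lower passed 1.5-fold against cells inside the same limits.

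**Figure D2:**
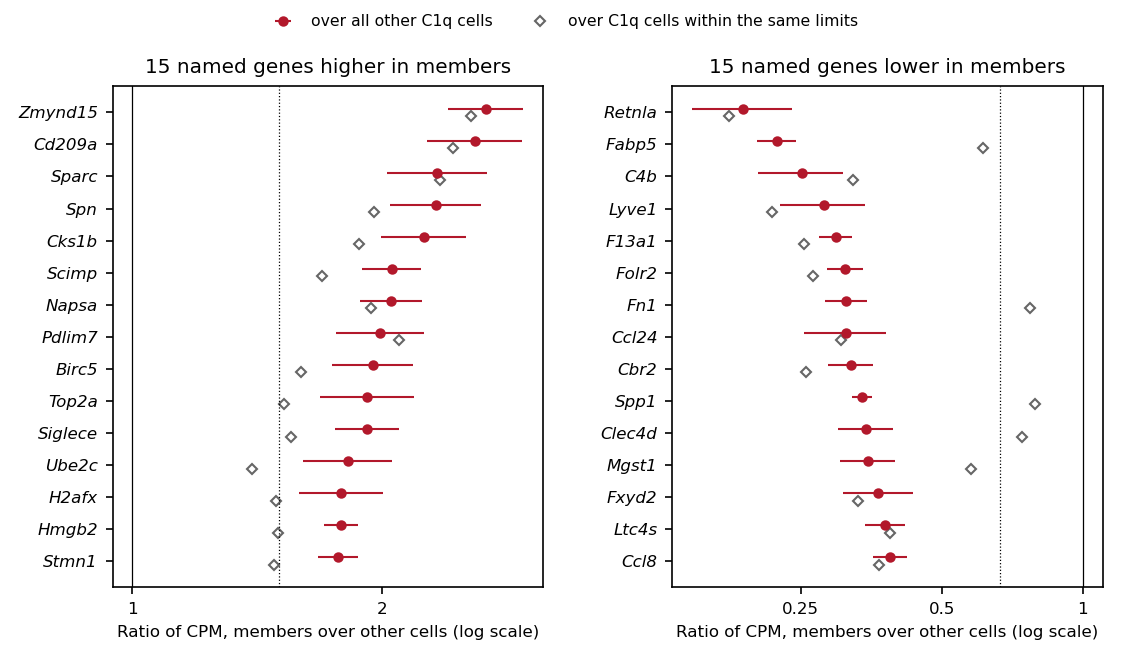
Ratio of CPM in members over the other C1q cells for the 15 highest (left) and 15 lowest (right) genes at 50 CPM or more, on log axes, with circles and 95% counting intervals for all other C1q cells and diamonds for those inside the same limits; dotted lines mark 1.5-fold. Zmynd15 and Folr2 keep their place against cells inside the limits, whereas Spp1, Fn1 and Clec4d move towards 1.

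The resident macrophage genes were lower as a group. Of 14 tested, 13 passed 1.5-fold on the low side in members and none on the high side, with a median log2 ratio of -1.50 against 0.01 over all 5100 genes. Fcna, a ficolin, and Cd163, the haemoglobin scavenger receptor, were lowest, with ratios of 0.202 and 0.204. Pf4, a platelet chemokine that macrophages also make, had 838 CPM in members and 1810 CPM in the other cells, a ratio of 0.463 (0.449 to 0.477). Gas6, the bridge between dying cells and the TAM receptors, had a ratio of 0.394, the mannose receptor Mrc1 one of 0.547, the transcription factor Maf one of 0.538, the growth factor Igf1 one of 0.589 and the selenium carrier Sepp1 one of 0.598. Against cells inside the same limits 13 of 15 tested were lower, with a median of -1.72. Cell by cell the difference was one of degree: genes of this list made up a median of 0.283% of UMIs in members and 0.612% in the other cells, and 15.05% of members lay above the median of the other cells. At 3000 UMIs per cell, 14.3% of members and 32.9% of the other cells had a transcript of Timd4, Lyve1 or Folr2, beside 7.5% of the low-C1q cells.

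Iron and haem genes were lower in part. Of 9 tested, 4 passed 1.5-fold on the low side and none on the high side, with a median log2 ratio of -0.49: Cd163, which the resident list also holds, the iron exporter Slc40a1 at 0.361, the haem oxygenase Hmox1 at 0.423 and the biliverdin reductase Blvrb at 0.620. Hmox1 had 86.5 CPM in members against 204.5 CPM in the other cells, and its ratio inside the same limits was 0.433. The genes for uptake of dying cells were mixed. Of 13 tested, 5 were lower (Gas6, Cd36 at 0.453, Mertk at 0.483, Msr1 at 0.543 and Stab1 at 0.620) and 1 was higher. That 1 was Axl, like Mertk a receptor for Gas6, with 216 CPM in members and 135 CPM in the other cells, a ratio of 1.59 (1.49 to 1.70). Axl and Mertk thus stood on opposite sides in the same cells, and inside the same limits Axl had a ratio of 1.40 and Mertk one of 0.560.

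Genes of MHC class II, which present peptides to CD4 T cells, were higher in members. Of 9 tested, 6 passed 1.5-fold upwards and none downwards, with a median log2 ratio of 0.64. The invariant chain Cd74 had 36470 CPM in members and 22351 CPM in the other cells, a ratio of 1.63 (1.62 to 1.64), and H2-Ab1, H2-Eb1 and H2-Aa had ratios of 1.56, 1.58 and 1.54. H2-Oa, which restrains peptide loading, was low but had the highest ratio of the list, 3.13 (2.51 to 3.87), with 23.5 CPM in members and 7.51 CPM in the other cells. Low-C1q cells had 103 CPM of H2-Oa, more than members, and 28295 CPM of Cd74, less than members. The master regulator Ciita had a ratio of 1.45. The difference was smaller inside the same limits: there only H2-Oa and H2-DMb2 passed 1.5-fold, Cd74 had a ratio of 1.29 and the median was 0.32. For H2-DMb2, 5 members held 64 of 138 UMIs, and its ratio over all other C1q cells was 0.994 without them, where that of H2-Oa without its top 5 members was 2.24. Members were far from uniform, with MHC class II genes making up a median of 7.35% of their UMIs and a 10th to 90th percentile range of 0.401 to 13.2%. The median was 3.30% in all other C1q cells and 5.11% in those inside the limits. Of 11 MHC class I genes and 15 type I interferon genes tested, none passed 1.5-fold in either direction. Inside the same limits no MHC class I gene passed. Of 16 type I interferon genes tested there, 2 were lower, Rsad2 at 0.535 and Ifit1 at 0.601, and the median log2 ratio was -0.24.

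Most genes named in the biology of the 5 markers stayed within 1.5-fold, and the counts that follow stand beside 2.43% higher and 2.84% lower over all genes. Of 12 genes induced by interferon-gamma, the cytokine that also induces the ligands of Cxcr3, none was higher and 2 were lower, among them the ligand Cxcl10 with a ratio of 0.617. Of 8 chemokine receptor genes none was higher and Ccr1 was lower at 0.658, while Ccr2 had a ratio of 1.26 and Cx3cr1 one of 1.13. Among 9 SLAM family and adaptor genes 2 were higher: Slamf9, with 496 CPM in members and 291 CPM in the other cells, a ratio of 1.71 (1.64 to 1.78), and Slamf7 with a ratio of 1.56. Inside the same limits only 1 of the 9 was higher. Slamf9 is a family member expressed on myeloid cells, and 75.8% of members lay above the median of the other cells for it. Among 21 genes of CD72 and of other inhibitory receptors 1 passed, Siglece, and Sema4d, a ligand of CD72, had a ratio of 1.26. Among 8 genes of junctions and adhesion 2 passed, the integrins Itgax (CD11c) at 2.06 and Itgb7 at 1.93, which stayed at 1.95 and 1.89 inside the limits.

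Beside the microglial marker Tmem119, most of the microglial set tested stayed within 1.5-fold. Of 22 microglia-type genes tested, none passed 1.5-fold downwards, 13 had a ratio above 1, and the median log2 ratio was 0.05. Among those above 1 were Itgb5 at 1.26, Cst3 at 1.22, Laptm5 at 1.20 and Olfml3 at 1.13. Under the minimum level, Golm1 and Lag3 had ratios of 2.10 and 1.67, and P2ry13, Smad3 and Bhlhe41 ratios of 0.756, 0.731 and 0.853. Sparc, whose difference rests on few cells, belongs to this list also. P2ry12, the ADP receptor of microglia, had a ratio of 1.00, Gpr34 one of 0.859, Fcrls one of 0.837 and the lipid receptor Trem2 one of 0.789, and Sall1, a transcription factor of microglia, had 0 UMIs in both groups. Signalling by TGF-beta, on which microglial identity depends in mice, was represented by 10 genes, of which Smad7 at 1.61 and Pmepa1 at 1.60 passed and the receptor Tgfbr1 stood at 1.46.

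**Figure D3:**
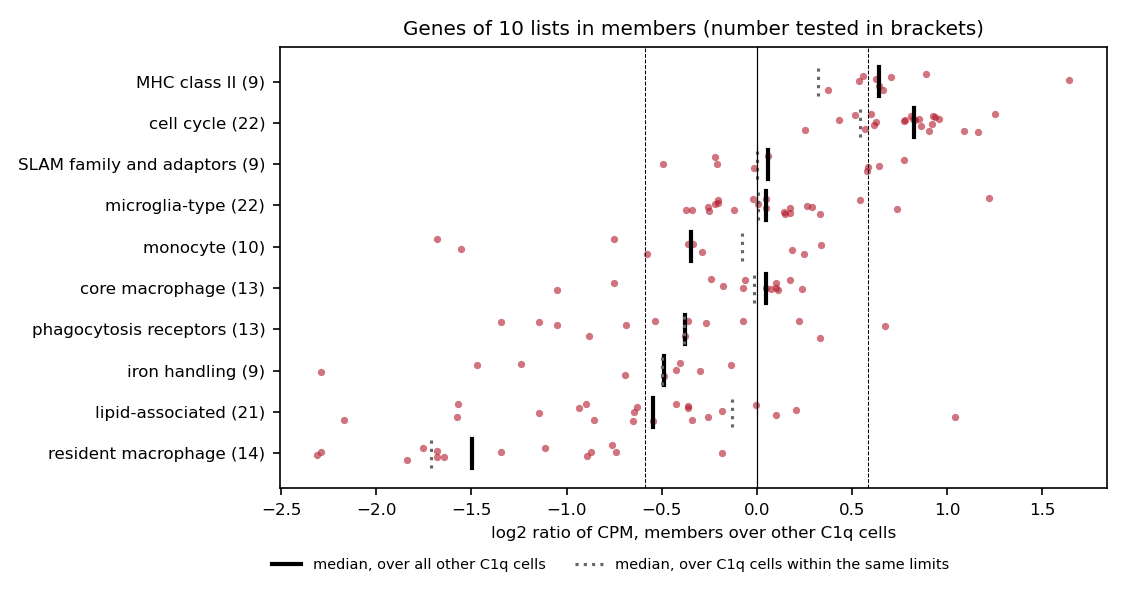
Log2 ratio of CPM in members over the other C1q cells (horizontal axis) for each tested gene of 10 lists, 1 point a gene, with the list median as a solid bar, the median against cells inside the same limits as a dotted bar, and dashed lines at 1.5-fold. The resident list lies left of 0 with a median of -1.50, the cell cycle and MHC class II lists lie right of it with medians of 0.83 and 0.64, and the microglia-type list is centred at 0.05.

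Cell cycle genes were the other list on the high side. Of 22 tested, 18 passed 1.5-fold upwards and none downwards, with a median log2 ratio of 0.83, and inside the same limits 8 were higher with a median of 0.54. Rrm2, a subunit of ribonucleotide reductase, had a ratio of 2.39 and the mitotic cyclin Ccnb1 one of 2.24, while Mki67 had 1.43 and Pcna 1.19. These genes were not particular to members. In the 405 other C1q cells inside the limits with Fcrls, Olfml3 and Cxcr4, Mki67, Top2a and Rrm2 had 33.8, 45.2 and 20.3 CPM. Members had 32.0, 55.1 and 32.7 CPM, and the 625 C1q cells with 3 or more Gpnmb UMIs had 6.85, 8.75 and 4.95 CPM. Among the named genes, Hmgb2, a chromatin protein, had 421 CPM in members and 236 CPM in the other cells, Stmn1, a microtubule regulator, 295 CPM in members and 167 CPM in the other cells, and Cks1b, a partner of cyclin-dependent kinases, 69.3 CPM in members and 30.9 CPM in the other cells. Birc5, Top2a, Ube2c and H2afx had ratios of 1.95, 1.92, 1.82 and 1.78. Without the top 5 members of each gene these were 1.48, 1.48, 1.10 and 1.40. With the top 5 of the other cells left out too they were 1.61, 1.64, 1.31 and 1.51. For Hmgb2, Stmn1 and Cks1b the ratios without the top 5 members were 1.54, 1.45 and 1.74. Cells with transcripts of at least 3 of the 25 listed genes were 19.2% of members and 13.05% of the other cells at 3000 UMIs, and 52.2% of members and 45.8% of the other cells without thinning. The 274 members and 1783 other cells that had them without thinning were left out to see which other differences stayed. They are called cycling cells by this count alone. Without thinning, Mki67 was found in 11.6% of all members and 7.73% of all other C1q cells. Since the same genes chose those cells, only 3 genes of the list were then still at 20 CPM or more, none past 1.5-fold upwards, and nothing is read from their loss. Of the 15 higher named genes, 10 were still at 20 CPM or more without the cycling cells and 7 of these passed 1.5-fold (Zmynd15, Cd209a, Spn, Scimp, Napsa, Pdlim7 and Siglece), as did all 15 lower ones.

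Lipid-associated genes, a list to which Gpnmb itself belongs, were lower in the comparison with all other C1q cells. Of 21 tested, 10 were lower and 1 higher, Itgax, with a median log2 ratio of -0.55. Inside the same limits 4 were lower and the median was -0.13. Inflammatory chemokines split: Ccl4 had 218 CPM in members and 132 CPM in the other cells, a ratio of 1.65 (1.55 to 1.76) that was 1.36 without the top 5 members, whereas the monocyte attractants Ccl2, Ccl7 and Ccl12 had ratios of 0.611, 0.440 and 0.499. Of 18 transcription factors tested, Klf2 at 0.479 and Maf at 0.538 were lower, and Runx3, a factor of CD8 T cells and dendritic cells, had a ratio of 1.39. Lyz2, which encodes lysozyme, had 13335 CPM in members and 22429 CPM in the other cells, a ratio of 0.595 (0.590 to 0.599).

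Several of these levels changed step by step with the number of markers a cell carried, also among cells that did not meet the rule. Over C1q cells inside the limits with 0, 1, 2, 3, 4 and 5 markers, Slamf9 went through 161, 314, 355, 399, 482 and 550 CPM. Zmynd15 went through 14.6, 23.8, 41.7, 45.9, 70.2 and 171 CPM. Pf4 ran the other way, through 3433, 2638, 1789, 1311, 921 and 565 CPM. Folr2 passed through 935, 542, 252, 181, 87.2 and 149 CPM, so the cells with all 5 markers were not the lowest. H2-Ab1 levelled off, with 6050 CPM at 0 markers, 12132 at 4 and 12052 at 5. Median depth also went up over these classes, from 5709 UMIs with no marker to 9335.5 with 5, and its part in these gradients was not tested.

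**Figure D4:**
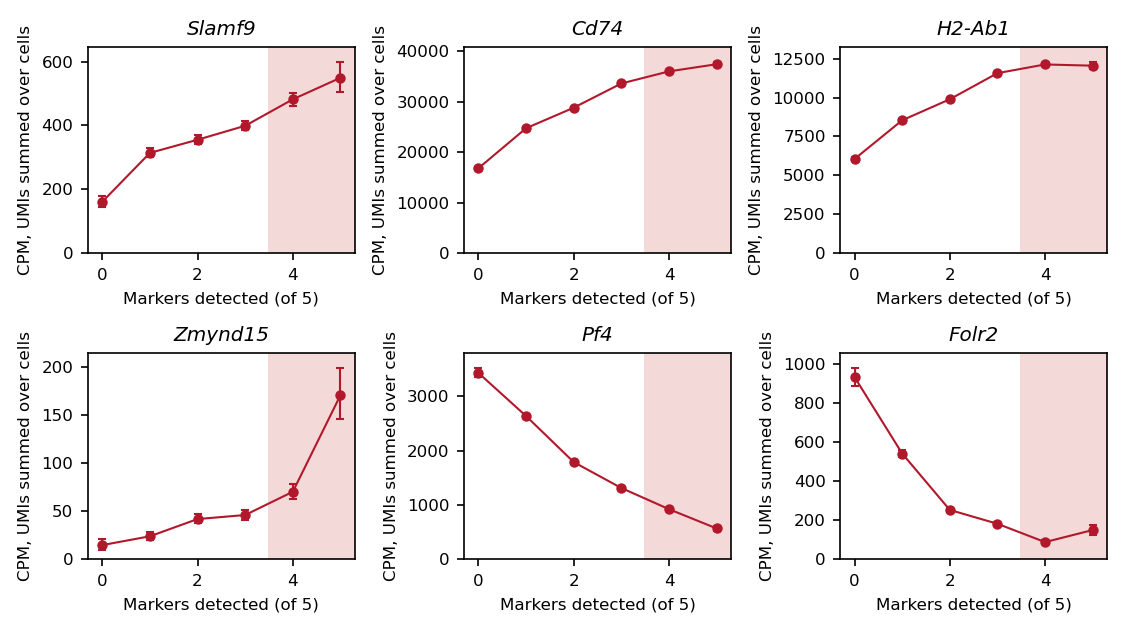
Level in CPM (vertical axes, from 0) of 6 genes in C1q cells inside the limits, grouped by how many of the 5 markers had a transcript (horizontal axes), with 95% counting intervals and the classes of 4 and 5 markers shaded. Slamf9 climbs at each step to 550 CPM and Pf4 descends at each step to 565 CPM.

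The members did not form a cluster of their own. When the library was clustered without the genes of the rule, members were found in all 12 clusters and in numbers of at least 20 in 7. The cluster led by Jchain, Cd74, H2-Eb1 and H2-Ab1 held 173 of them, 33.0% of members against 10.8% of the other C1q cells, and members made up 28.2% of it. Jchain names this cluster but was not a trait of members. It had 1.85 CPM in members and 34.96 CPM in the other C1q cells, a ratio of 0.0529, and 0.0342 inside the same limits. A proliferating cluster led by Nusap1 and Ccna2 held 7.05% of members and 3.52% of the other cells. At the other end, the cluster led by Lyve1, Folr2 and Cd163 held 9 members (1.71%) and 13.1% of the other cells, and the cluster led by C4b, Ccl8 and Fcna held 5 members (0.952%) and 11.4% of the other cells. Of the nearest neighbours of a member, 30.7% were members on average, against 12.3% of those of the other C1q cells and 11.2% of the library. A preference for one another was therefore present without the marker genes, but 3 clusters together held no more than 62.5% of members.

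Within the 7 clusters with at least 20 members, the members were also set against the other cells of their own cluster. Pf4 and Lyz2 were lower in all 7, with intervals below 1, and Folr2 and F13a1 in 6 of 7. Slamf9 had ratios from 1.02 to 2.06, with the interval above 1 in 6 of 7 clusters. Axl had ratios from 1.10 to 1.78, Siglece from 1.15 to 2.18 and Napsa from 1.02 to 2.84, each with the interval above 1 in 4 of 7. Zmynd15 had ratios from 0.604 to 3.003, with the interval above 1 in 5 of 7. H2-Ab1 had ratios from 0.871 to 1.58, with the interval above 1 in 5 clusters and below 1 in 2.

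**Figure D5:**
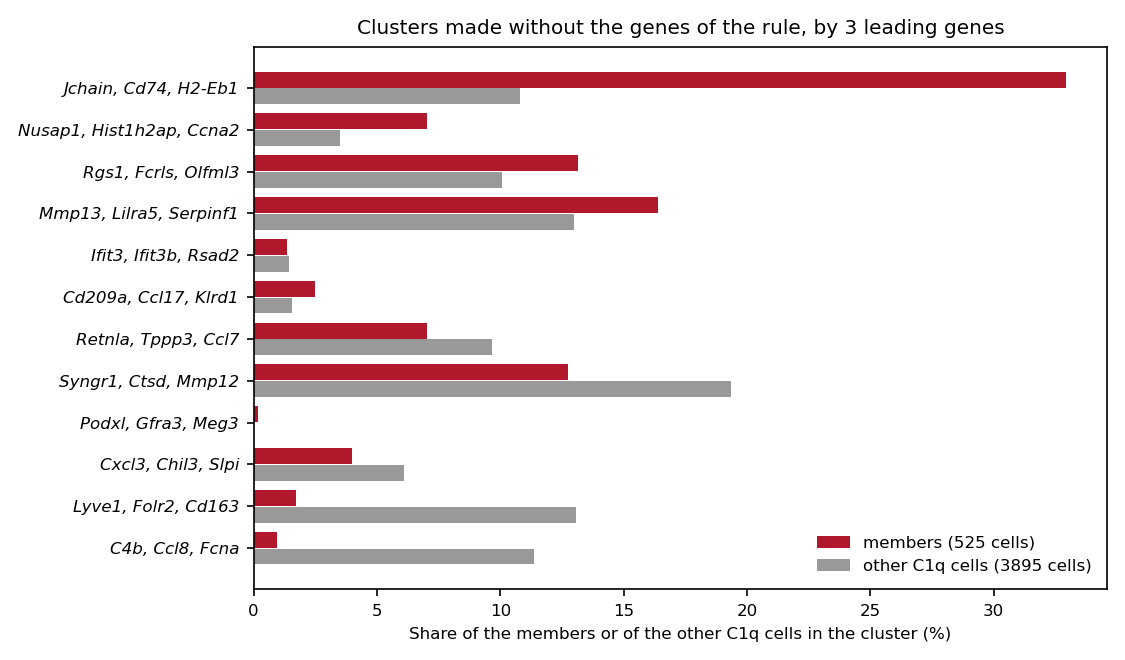
Share of members and of the other C1q cells (percent of each group, horizontal axis) in each of 12 clusters made without the genes of the rule, named by leading genes. Members are concentrated in the cluster led by Jchain and Cd74 (33.0% against 10.8%) and are sparse in those led by Lyve1 and C4b. Jchain itself was low in members, at 1.85 CPM against 34.96 CPM in the other C1q cells.

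The 73 steady-state cells that met the rule offered the same contrast in another library. There 131 of 5434 genes (2.41%) passed 1.5-fold upwards and 183 (3.37%) downwards relative to the other steady-state C1q cells. Of 4917 genes tested in both libraries, 23 were higher in both, which is 23% of the 100 higher at day 11 and 26.1% of the 88 higher at steady state. Lower in both were 43, which is 34.4% of 125 at day 11 and 34.1% of 126 at steady state. Of all 4917 genes, 1.79% were higher and 2.56% lower at steady state. The resident list was lower in both: at steady state 13 of 16 passed, with a median log2 ratio of -0.88, and Folr2 had a ratio of 0.502 and F13a1 one of 0.508. Zmynd15 at 1.80, Napsa at 2.44, Itgax at 2.21 and H2-Oa at 3.58 were at least 1.5-fold higher at steady state also. Most of the higher named genes were not: 9 of 15 were on the same side and 3 passed 1.5-fold, and Spn stood at 1.31, Scimp at 1.43, Siglece at 1.31 and Pdlim7 at 1.15. Of the 15 lower named genes, 14 were on the same side and 8 passed. Among the 100 genes higher at day 11, 29 were on the opposite side at steady state, as were 9 of the 125 lower ones. The cell cycle list was not higher there, with none of 19 genes past 1.5-fold in either direction and a median of -0.09. Genes of monocytes had a median log2 ratio of -0.35 at day 11, where 3 of 10 (Fn1, Thbs1 and Lyz2) were lower and none higher. Against day 11 cells inside the same limits 1 of these 10 genes was lower, none was higher and their median was -0.07. At steady state their median was 0.32, and 5 of 11 were higher, with no gene of the list past 1.5-fold downwards. Ccr2 had a ratio of 1.26 at day 11 and 1.81 at steady state, and this difference between libraries was not tested.

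The reporter transcripts gave little contrast. At 3000 UMIs per cell, EYFP, transcribed from the Cx3cr1 locus, was found in 13.3% of members and 10.4% of the other C1q cells, beside 7.92% of low-C1q cells. TdTomato was found in 0.381% of members and 0.758% of the other cells, too few cells to show a difference at this depth. The labels do not say whether or when tamoxifen, which activates this Cre, was given. Ccr2 was found in 43.0% of members and 33.6% of the other cells and Cx3cr1 in 51.6% of members and 43.7% of the other cells, beside 60.4% and 18.8% of low-C1q cells.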

How the data were processed

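Cells were sorted from mouse hearts and sequenced in 3 droplet libraries, and the authors deposited raw UMI counts per gene and barcode, not normalised. Per the submitters' processing notes Cell Ranger and STAR were used with mm10; the sources used here give no versions. Barcodes with under 500 genes or over 10% mitochondrial UMIs were left out (24, 39 and 13 of 4697, 1806 and 1780). Counts were summed over cells and expressed as counts per 1000000 (CPM) without the 8 genes of the rule and the reporter entries. Genes at 20 CPM or more in either group were tested, and a 1.5-fold ratio was called, with an exact conditional binomial 95% interval. Named genes were the 15 highest and 15 lowest past 1.5-fold at 50 CPM or more. Shares were taken after thinning each cell to 3000 UMIs, which left out 71 of 3895 comparison cells. Doublets were scored by simulation, and the top 0.8% per 1000 barcodes (175) were removed as an alternative only. Clustering and neighbours used 2000 genes, 30 components and 15 neighbours at resolution 1.0, in Python 3.11.15 with scanpy 1.11.5, numpy 2.4.6 and scipy 1.17.1. The ratio calculation was tested on simulated counts. Members and lists were chosen with earlier results of these data known. Alternatives covered the number of markers, the limits, thinning, minimum level, fold, doublets, depth, cycling cells and cluster resolution. The symbol Selenop was read as Sepp1, and 6 list symbols had no entry in the files. A microglia-type gene is not reported here.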

Additional observations from a re-analysis of the deposited data

Results flagged for a closer look

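For 3 genes outside the rule, the ratio of rule cells over the other C1q cells pointed one way at day 11 and the other way at steady state, past 1.5-fold in both libraries when all other C1q cells are the comparison. The difference between the libraries was not tested, since each state has 1 library. Fn1, fibronectin, had a ratio of 0.312 at day 11 (70.8 CPM in members and 227 CPM in the other cells) and 1.94 at steady state (interval 1.37 to 2.68, with 31.3 CPM in rule cells and 16.1 CPM in the other cells). Against day 11 cells inside the same limits the ratio of Fn1 was 0.773, under 1.5-fold. Tk1, the thymidine kinase of dividing cells, had a ratio of 2.42 at day 11 (33.8 CPM in members and 14.0 CPM in the other cells) and 0.339 at steady state (0.168 to 0.611, with 8.20 CPM in rule cells and 24.2 CPM in the other cells). Inside the limits its day 11 ratio was 2.08. Hist1h2ap, a replication histone with near-identical copies among which reads could be split, had a ratio of 1.62 at day 11 (83.8 CPM in members and 51.7 CPM in the other cells) and 0.417 at steady state (0.341 to 0.505, with 80.5 CPM in rule cells and 193 CPM in the other cells). Inside the limits its day 11 ratio was 1.37, under 1.5-fold.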

How the results depend on the processing

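No paired analysis was possible because each state has 1 library. The share of members was 28.1% with at least 3 markers, 1.97% with all 5, 13.8% without the limits and 2.38% when cells were thinned before the rule, against 11.2%; thinned before the rule or with at least 3 markers it was 0.170% or 16.3% at steady state and 0.125% or 4.47% in the dendritic-cell library. Against 124 higher and 145 lower genes, members with all 5 markers gave 308 and 339, a 50 CPM minimum 49 and 82, a 2-fold threshold 29 and 58, the same limits for both groups 79 higher, and leaving out cycling cells 249 lower. With the same limits the genes past 1.5-fold were 2 of MHC class II, 8 of the cell cycle and 4 lower lipid-associated genes. With means over cells they were 1 of MHC class II and 9 of the cell cycle, at a 50 CPM minimum 5 of the cell cycle and 2 lower iron genes, and without cycling cells 0 of the 3 cell cycle genes still tested. Without thinning the ratio of members' over the other cells' share was 1.14 for cycling cells (1.47 thinned), 0.605 for resident-marker cells (0.434), 1.81 for Zmynd15 (2.44) and 2.04 for Spn (2.64); at 5000 UMIs it was 1.71 for Zmynd15 and 1.86 for Spn. The highest share of a cluster that members made up was 22.8% at resolution 0.5 and 32.2% at 2.0. At resolution 1.0 it was 28.2%, in the cluster led by Jchain. Of 330 values of the 30 named genes under 11 settings, 216 moved less than their counting interval, 111 moved more and 3 changed sides: Sparc at 0.850 without cycling cells and 0.819 without stromal-gene cells, and Stmn1 at 0.877 without cycling cells. Leaving out cells with stromal genes, or the cluster led by Cd209a, was chosen after seeing the data. The cause of these changes was not tested. For the markers other than Cd72, a median of 1 or 2 UMIs in cells that had them limits the rule.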

Other observations

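Members that lacked different markers differed among themselves. The 55 members without Tmem119 transcripts had 155 CPM of Cd209a, 256 CPM of Napsa and 48879 CPM of Cd74, whereas the 39 without F11r had 0 CPM of Cd209a, and the 55 without Sh2d1b1 had 28774 CPM of Cd74. The 284 without Cxcr3 had 35497 CPM of Cd74 and 44.3 CPM of Cd209a. These groups are small and of 1 library, and the differences were not tested.

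Of 510 day 11 cells inside the limits with transcripts of Fcrls, Olfml3 and Cxcr4, 102 were members, which is 20.0% of that set. Such cells were 19.4% of members, 14.5% of the other C1q cells inside the limits and 10.4% of all other C1q cells.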
